A study of Oryza sativa Japonica Group with 36 samples.

Results

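Phenylalanine ammonia-lyase (PAL) and cinnamate 4-hydroxylase (C4H) carry out the first 2 steps of the phenylpropanoid pathway, and 8 rice genes for them, 6 PAL copies and 2 C4H copies, were followed among the 38026 genes of the deposited table. The 8 genes were taken by their identifiers and were compared by level, by leaf and by time point. The PAL copies were OS02G0626100, OS02G0626400 and OS02G0627100 on chromosome 2, OS04G0518100 and OS04G0518400 on chromosome 4, and OS05G0427400 on chromosome 5. The C4H copies were OS05G0320700 on chromosome 5 and OS01G0820000 on chromosome 1. Poly(A) RNA was sequenced from flag leaves (FL, the uppermost leaf, beside the panicle) and second leaves (SL, the next leaf down) of field-grown rice of the japonica cultivar Dongjin at 6 time points of grain filling, every 8 days between 4 and 44 days after heading (DAH), with 3 libraries for each leaf and time point and 36 in all. All groups shared this cultivar and field, and no treatment was given in the labels. Each library was made from the middle parts of several leaves pooled as 1 biological replicate, and the 3 replicates of a group were collected at the same time, so their spread holds no difference between days, fields or years.

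PAL removes ammonia from phenylalanine and gives cinnamate, the committed step by which carbon leaves amino acid metabolism for lignin, flavonoids and other phenolic compounds. C4H is a cytochrome P450 that hydroxylates cinnamate to 4-coumarate, and 4-coumarate:CoA ligase (4CL) then forms the CoA ester from which the flavonoid and lignin branches start. In grasses PAL is a gene family, several members of which lie next to each other on a chromosome, and leaves use its products for cell walls, for UV screens and against pathogens. In a reference annotation of another rice assembly, ASM3414082v1, 7 of the 8 genes had an entry. There, OS02G0626100, OS02G0626400, OS02G0626600 and OS02G0627100 followed one another directly, with synonyms PAL for OS02G0626100 and ZB8 for OS02G0627100. The gene between them, OS02G0626600, stood on the list of other PAL copies drawn up for the comparison but was not among the 8 genes. It reached at most 1.66 CPM in FL and 1.10 CPM in SL. Nucleotide and protein sequences of the copies were not used here. Reads that match several copies equally well can be split between them or dropped in counting, and their part in the values of the neighbouring copies was not tested.

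The values were reads counted on a gene relative to the size of the library (CPM), scaled by the authors with the trimmed mean of M-values (TMM) method. The libraries held 5713546 to 29789199 reads on genes, with a median of 17017740 in FL and 12194003 in SL, and 1 read was worth 0.0355 to 0.170 CPM. All 8 genes passed the filter on low values (log2(CPM + 1) of 1 or higher in a minimum of 3 libraries), as did 22057 genes in all. Levels are given per library or as the mean ± SD of the 3 libraries of a group. CPM values are not scaled by the length of a gene, and lengths were not used here. An order of the copies by CPM is therefore an order by reads and not by transcripts, whereas the comparisons of a gene with itself between leaves and time points do not depend on length. The tissue label was checked against marker genes. The summed level of 4 mesophyll genes (RBCS-C, RBCS-A, CAB2R and CAB1R) was 1959.7 to 6845 CPM in FL and 2301 to 5154 CPM in SL, none of the 4 being near 0 in the median library. The CAB genes varied widely over time. CAB1R means were 1101 CPM at 4 DAH and 7.61 CPM at 44 DAH in FL, and 874 and 7.31 CPM in SL. CAB2R means were 852 CPM at 4 DAH and 17.6 CPM at 28 DAH in FL, and 986 and 19.7 CPM in SL. The summed level of the secondary wall cellulose synthases CESA4, CESA7 and CESA9, with medians at or near 0 for CESA7 and CESA9, was 0.180 to 3.35 CPM in FL and 0 to 4.06 CPM in SL. In these bulk samples, fewer cells of a type and less RNA per cell cannot be told apart.

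All 8 copies were higher in FL than in SL on average over the 6 time points, but the difference was concentrated at 20 and 28 DAH and was carried very unequally by the copies. At 28 DAH, OS02G0627100, OS02G0626100 and OS04G0518400 were highest in FL relative to SL, at log2 differences of 2.81, 2.68 and 2.61. The copy with the most reads, OS02G0626400, had a log2 difference of 0.95 at that time, and OS04G0518100 had 0.29, which did not pass the test. By 44 DAH no copy differed between the leaves past the threshold. Differences between leaves are given throughout as FL minus SL on the quantile-normalized log2(CPM + 1) scale, which understates the change of low genes, with the standard error (SE) and the Benjamini-Hochberg adjusted p of limma over all 22057 genes. A gene was called where that p was below 0.05.

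**Figure D1:**
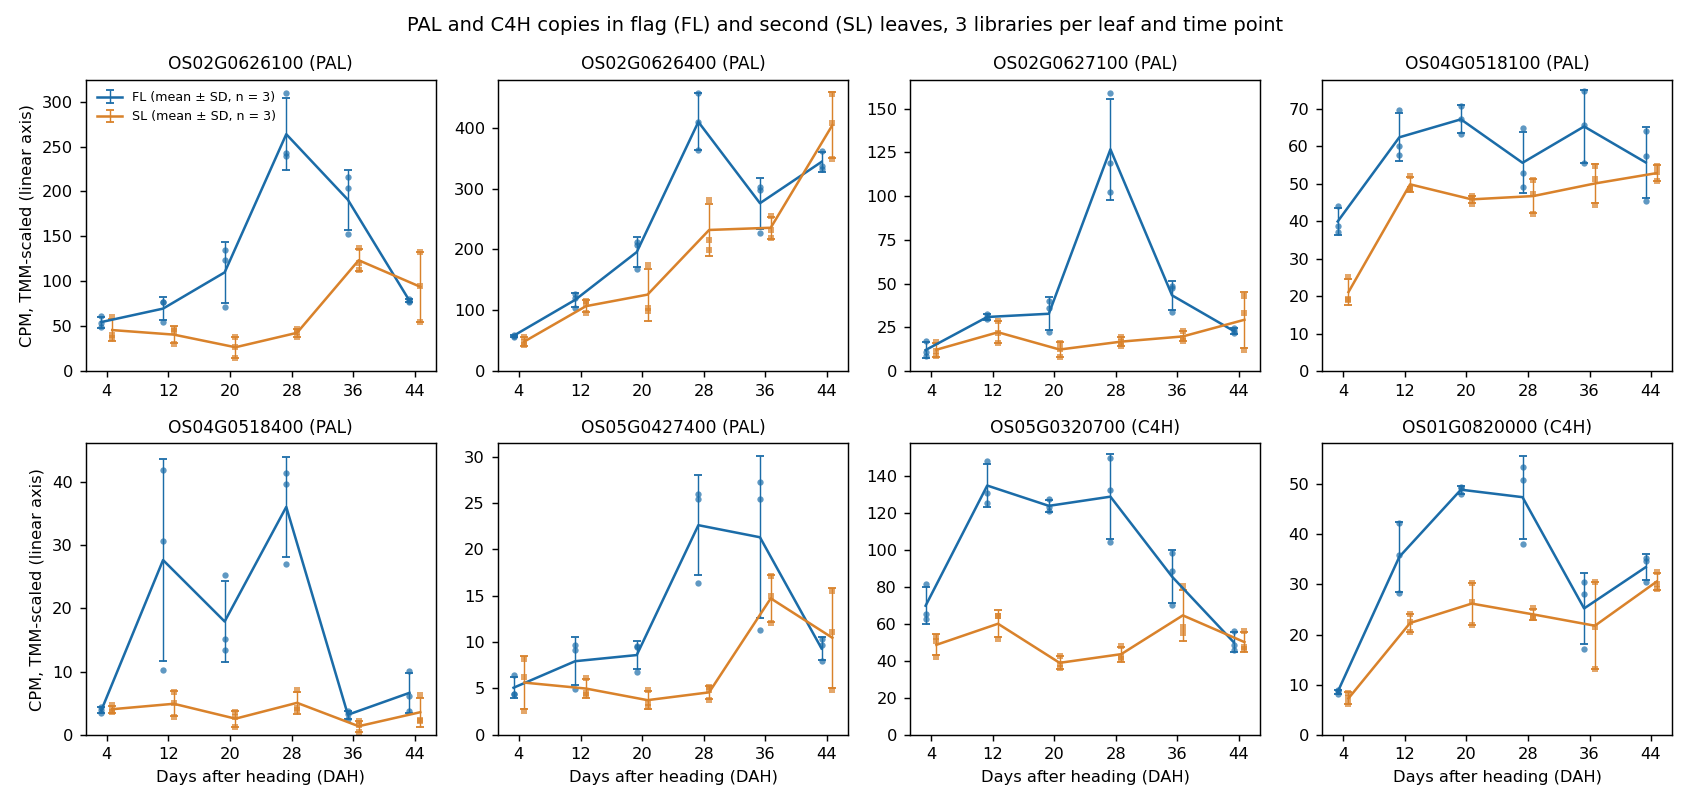
CPM (TMM-scaled, linear axes that start at 0) of the 6 PAL and 2 C4H copies against days after heading, with FL in blue and SL in orange; points are the 3 libraries of a group, lines join the means and bars are the SD. At 28 DAH the FL mean stood at 264 ± 39.8 CPM for OS02G0626100 against 42.7 ± 4.68 CPM in SL, while at 44 DAH the libraries of the leaves overlapped for every copy.

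Among the PAL copies, OS02G0626400 gave the most reads. Its CPM values at 4 DAH were 59.99, 56.6 and 57.7 in FL, against 42.4, 55.6 and 47.98 in SL. At 12 DAH they were 127, 104 and 119.7 in FL, against 109.6, 115 and 96.03 in SL. The 20 DAH values were 212, 208 and 167 in FL, against 175, 104 and 98.3 in SL. All FL libraries were above all SL libraries at 4 DAH, whereas the leaves overlapped at 12 DAH and 1 SL library at 20 DAH lay within the FL range. At 28 DAH the values were 363, 409 and 457 in FL, against 281, 215 and 199.7 in SL. At 36 DAH they were 227, 297 and 303 in FL, against 219, 232 and 256 in SL. At 44 DAH they were 337, 362 and 332 in FL, against 408, 349 and 456 in SL. The leaves were fully apart at 28 DAH, with all FL libraries above all SL libraries, and overlapped at 36 and 44 DAH. The difference passed the test at 20 DAH (0.68 ± 0.16, adjusted p = 0.00152) and 28 DAH (0.95 ± 0.16, adjusted p = 6.40e-05) and was -0.29 ± 0.16, adjusted p = 0.290 at 44 DAH. In both leaves this copy climbed over time, to 2.94 above 4 DAH on the log2 scale at 28 DAH in FL and to 3.11 at 44 DAH in SL, the largest change from 4 DAH of any copy in SL. In FL the order of the means was 28, 44, 36, 20, 12 and 4 DAH, and no neighbours in it overlapped, although 28 DAH began at 363 CPM where 44 DAH ended at 362 CPM. In SL, 44 DAH was highest and 4 DAH lowest, both clear of the next time point, whereas 36 and 28 DAH overlapped, as did 20 and 12 DAH.

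OS02G0626100, its neighbour with the synonym PAL, diverged far more between the leaves. At 12 DAH its CPM values were 54.7, 77.3 and 76.8 in FL, against 47.2, 45.03 and 29.8 in SL. At 20 DAH they were 135, 123 and 71.7 in FL, against 37.9, 26.9 and 14.97 in SL. On day 28 the values were 242, 309.6 and 239 in FL, against 37.9, 47.2 and 43.03 in SL. At all these time points every FL library was above every SL library, and from 12 to 28 DAH the gap widened, since FL went up while no SL library exceeded 47.2 CPM. At 36 DAH the values were 153, 216 and 204 in FL, against 121, 137 and 113 in SL. At 44 DAH they were 77.1, 77.6 and 80.4 in FL, against 95.2, 54.3 and 132 in SL. The leaves came together late, since SL had its highest mean at 36 DAH, 123 ± 12.3 CPM, when FL was already past its own, and 2 of the 3 SL libraries at 44 DAH exceeded all FL libraries. FL exceeded SL on the log2 scale by 2.02 ± 0.29, adjusted p = 8.78e-06 at 20 DAH and 2.68 ± 0.29, adjusted p = 2.23e-07 at 28 DAH. At 36 DAH, where the libraries did not overlap, it was 0.51 ± 0.29, adjusted p = 0.228 and did not pass. At 4 DAH, the means were 54.7 ± 6.13 CPM in FL and 45.7 ± 12.3 CPM in SL. In FL the order of the means was 28, 36, 20, 44, 12 and 4 DAH. The libraries of 28 DAH stood clear of 36 DAH and those of 36 DAH clear of 20 DAH, whereas the lower neighbours overlapped. In SL the order was 36, 44, 4, 28, 12 and 20 DAH, and all neighbours in it overlapped.

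OS02G0627100, the third expressed copy of the chromosome 2 group, had its peak in FL at 28 DAH. At 20 DAH its CPM values were 39.97, 36.3 and 22.1 in FL, against 16.2, 12.9 and 7.93 in SL. At 28 DAH they were 103, 119 and 159 in FL, against 14.3, 19.7 and 16.6 in SL. At 36 DAH they were 33.96, 47.4 and 48.6 in FL, against 17.3, 23 and 19.2 in SL. The FL libraries lay above the SL libraries at each of these time points, and no SL library of any time point exceeded 43.01 CPM. The log2 difference was 1.33 ± 0.32, adjusted p = 0.00234 at 20 DAH, 2.81 ± 0.32, adjusted p = 5.17e-07 at 28 DAH and 1.11 ± 0.32, adjusted p = 0.0264 at 36 DAH. The FL mean at 28 DAH, 127 ± 29.01 CPM, was 10.5 times that at 4 DAH, whereas in SL the highest mean was 2.40 times the lowest. At 36 DAH it was the single copy called, and this call was lost without replicate 1 (1.18 ± 0.43, adjusted p = 0.242) and without replicate 3 (1.02 ± 0.34, adjusted p = 0.0917). It was also lost in the fit to the 36 DAH libraries alone, where 0 of 22057 genes were called. At 44 DAH the values were 24.6, 22.8 and 21.5 in FL, against 33.1, 11.95 and 43.01 in SL. The FL libraries were close to one another there and the SL libraries far apart on both sides of them. In the FL order of 28, 36, 20, 12, 44 and 4 DAH, the libraries of 36 and 20 DAH overlapped, as did those of 20 and 12 DAH, and the other neighbours did not.

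OS04G0518400, a copy with few reads in most groups, had the largest average difference between the leaves. At 12 DAH its CPM values were 41.9, 10.3 and 30.6 in FL, against 5.05, 2.88 and 6.77 in SL. The 20 DAH values were 15.1, 25.2 and 13.4 in FL, against 2.80, 3.66 and 1.17 in SL. On day 28 the values were 39.7, 41.4 and 26.98 in FL, against 3.90, 7.04 and 4.22 in SL. All FL libraries were above all SL libraries at these time points, although the FL libraries of 12 DAH were spread from 10.3 to 41.9 CPM. Outside this window the copy was low in both leaves, with means of 3.91 ± 0.438 CPM in FL and 4.04 ± 0.536 CPM in SL at 4 DAH and 3.17 ± 0.603 CPM in FL and 1.35 ± 0.894 CPM in SL at 36 DAH. Its lowest library, at 0.367 CPM in SL at 36 DAH, rested on 3 reads. FL exceeded SL on the log2 scale by 2.11 ± 0.41, adjusted p = 0.00123 at 12 DAH, 2.40 ± 0.41, adjusted p = 9.33e-05 at 20 DAH and 2.61 ± 0.41, adjusted p = 4.02e-05 at 28 DAH. In FL the libraries of 28 and 12 DAH overlapped, as did those of 12 and 20 DAH, and all 3 time points were clear of the others.

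OS04G0518100 was the PAL copy with the smallest range of means over time in FL, and the one called between the leaves at 4 DAH. Its highest mean was 1.68 times the lowest in FL and 2.50 times in SL. At 4 DAH its CPM values were 43.98, 37.2 and 38.6 in FL, against 19.1, 25.03 and 19.1 in SL. At 20 DAH they were 67.4, 63.3 and 70.7 in FL, against 46.1, 44.7 and 46.6 in SL. At 28 DAH they were 52.8, 64.8 and 49.1 in FL, against 41.9, 50.9 and 47.3 in SL. The leaves were fully apart at 4, 12, 20 and 36 DAH, and overlapped at 44 DAH and at 28 DAH, when most other copies were furthest apart. The log2 difference was 0.88 ± 0.14, adjusted p = 9.11e-05 at 4 DAH, 0.51 ± 0.14, adjusted p = 0.00737 at 20 DAH and 0.29 ± 0.14, adjusted p = 0.148 at 28 DAH. Its change from 4 DAH was called at every later time point in both leaves, and at 28 DAH it was 0.51 ± 0.14, adjusted p = 0.00342 in FL and 1.10 ± 0.14, adjusted p = 1.82e-07 in SL. After 4 DAH the means stayed between 55.6 and 67.1 CPM in FL and between 45.8 and 52.8 CPM in SL, and neighbours in either order overlapped, with 4 DAH alone clear below them.

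OS05G0427400, a low copy on chromosome 5, resembled OS02G0626100 in its course. At 20 DAH its CPM values were 9.55, 9.43 and 6.83 in FL, against 4.87, 3.38 and 2.97 in SL. On day 28 the values were 16.4, 26.01 and 25.5 in FL, against 3.78, 5.17 and 4.79 in SL. At 36 DAH they were 11.3, 25.4 and 27.2 in FL, against 15, 17.1 and 12.03 in SL. The leaves were apart at 20 and 28 DAH and overlapped at 36 DAH, where SL had its highest mean. FL exceeded SL on the log2 scale by 0.98 ± 0.33, adjusted p = 0.0251 at 20 DAH and 2.05 ± 0.33, adjusted p = 5.48e-05 at 28 DAH, and at 36 DAH it was 0.45 ± 0.33, adjusted p = 0.363. The call at 20 DAH was lost when any one of the replicate numbers was left out, at adjusted p-values of 0.0562, 0.107 and 0.107 without replicates 1, 2 and 3. At 4 DAH the means were 5.08 ± 1.15 CPM in FL and 5.63 ± 2.85 CPM in SL, at 12 DAH 7.94 ± 2.57 CPM in FL and 4.99 ± 1.02 CPM in SL, and at 44 DAH 9.31 ± 1.20 CPM in FL and 10.5 ± 5.39 CPM in SL, and at each the libraries overlapped. In FL, 28 and 36 DAH overlapped with each other and were clear of the other time points.

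Of the C4H copies, OS05G0320700 gave the most reads and had the difference with the smallest adjusted p of the 8 genes on average. At 12 DAH its CPM values were 131, 125 and 148 in FL, against 64.2, 51.7 and 63.99 in SL. The 20 DAH values were 123, 127 and 121 in FL, against 38.1, 42.6 and 35.8 in SL. At 28 DAH they were 132, 149.7 and 104 in FL, against 41.9, 48.1 and 40.7 in SL. From 4 to 28 DAH every FL library was above every SL library, and at 20 DAH the lowest FL library was 121 CPM where the highest SL library was 42.6 CPM. The log2 difference was 1.11 ± 0.17, adjusted p = 9.27e-05 at 12 DAH, 1.61 ± 0.17, adjusted p = 2.36e-07 at 20 DAH and 1.59 ± 0.17, adjusted p = 2.23e-07 at 28 DAH. At 4 DAH the values were 81.3, 62.4 and 65.4 in FL, against 50.6, 42.1 and 53.02 in SL, and the difference of 0.43 ± 0.17, adjusted p = 0.0959 did not pass, while TMM scaling without quantile normalization gave 0.51 ± 0.15, adjusted p = 0.0178. At 36 DAH the values were 69.9, 97.9 and 88.3 in FL, against 54.9, 58.1 and 80.4 in SL. At 44 DAH they were 48.6, 55.9 and 45.6 in FL, against 46.3, 47.6 and 56.2 in SL. Both groups overlapped between the leaves, and in FL this was the one copy called below its 4 DAH level at 44 DAH (-0.42 ± 0.17, adjusted p = 0.0341). The FL libraries of 12, 28 and 20 DAH, the upper end of the order, overlapped and were clear of the remaining time points, whereas in SL all neighbours overlapped.

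OS01G0820000, the other C4H copy, was low in both leaves at 4 DAH and higher in FL from 12 to 28 DAH. At 12 DAH its CPM values were 28.3, 35.9 and 42.3 in FL, against 22.5, 24.01 and 20.4 in SL. At 20 DAH they were 48.02, 49.3 and 49.4 in FL, against 26.5, 30.2 and 21.9 in SL. On day 28 the values were 50.8, 53.5 and 38.02 in FL, against 23.3, 25.3 and 23.5 in SL. The FL libraries exceeded the SL libraries at all 3 time points. At 4 DAH the means were 8.57 ± 0.412 CPM in FL and 7.26 ± 1.19 CPM in SL, at 36 DAH 25.2 ± 7.16 CPM in FL and 21.8 ± 8.67 CPM in SL, and at 44 DAH 33.5 ± 2.56 CPM in FL and 30.6 ± 1.71 CPM in SL. The leaves overlapped at these early and late time points. FL exceeded SL on the log2 scale by 0.65 ± 0.21, adjusted p = 0.0420 at 12 DAH, 0.85 ± 0.21, adjusted p = 0.00349 at 20 DAH and 0.95 ± 0.21, adjusted p = 0.00173 at 28 DAH. Without replicate 2 none of these 3 calls was kept, at adjusted p-values of 0.345, 0.0548 and 0.0903, and the call at 12 DAH was also lost without replicate 3 (0.43 ± 0.21, adjusted p = 0.255) and without the filter on low values (0.65 ± 0.22, adjusted p = 0.0657). By 12 DAH its level was 1.97 above 4 DAH on the log2 scale in FL and 1.58 in SL, both called. Its libraries at 4 DAH were clear below all others in both leaves.

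Averaged over the 6 time points, all 8 copies were called higher in FL, against 22.4% of all genes tested. The members had a median log2 difference of 0.76, against -0.01 for all genes tested. OS04G0518400 had the largest average difference (1.47 ± 0.17, adjusted p = 4.47e-08), followed by OS02G0626100 (0.99 ± 0.12, adjusted p = 6.85e-08) and OS02G0627100 (0.93 ± 0.13, adjusted p = 1.08e-06). The C4H copies had 0.84 ± 0.07, adjusted p = 1.20e-10 for OS05G0320700 and 0.51 ± 0.09, adjusted p = 2.26e-05 for OS01G0820000. OS05G0427400 had 0.67 ± 0.14, adjusted p = 0.000165. The smallest were OS04G0518100 (0.39 ± 0.06, adjusted p = 2.81e-06) and OS02G0626400 (0.29 ± 0.06, adjusted p = 0.000455). Without the 28 DAH libraries, an alternative added after seeing the data, 7 of the 8 were called, and OS02G0626400 was at 0.16 ± 0.07, adjusted p = 0.0736.

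By time point, 20 of the 48 comparisons of a copy between the leaves were called, all of them higher in FL. At 4 DAH, 1 copy was called, OS04G0518100, against 7.56% of all genes called higher in FL. At 12 DAH, 3 copies were called, OS04G0518400, OS05G0320700 and OS01G0820000, against 6.51%. At 20 DAH all 8 were called, against 15.2%, and at 28 DAH 7, all except OS04G0518100, against 10.3%. At 36 DAH, 1 copy was called, OS02G0627100, against 4.68%, and at 44 DAH limma called 0, against 1.97%, and edgeR and DESeq2 on the recovered reads also called 0, as did limma at an unadjusted p under 0.05. In the order of the time points, the median difference of the 8 copies was 0.20, 0.60, 1.16, 1.82, 0.40 and -0.01, whereas the median of all genes stayed between -0.03 and 0.01.

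**Figure D2:**
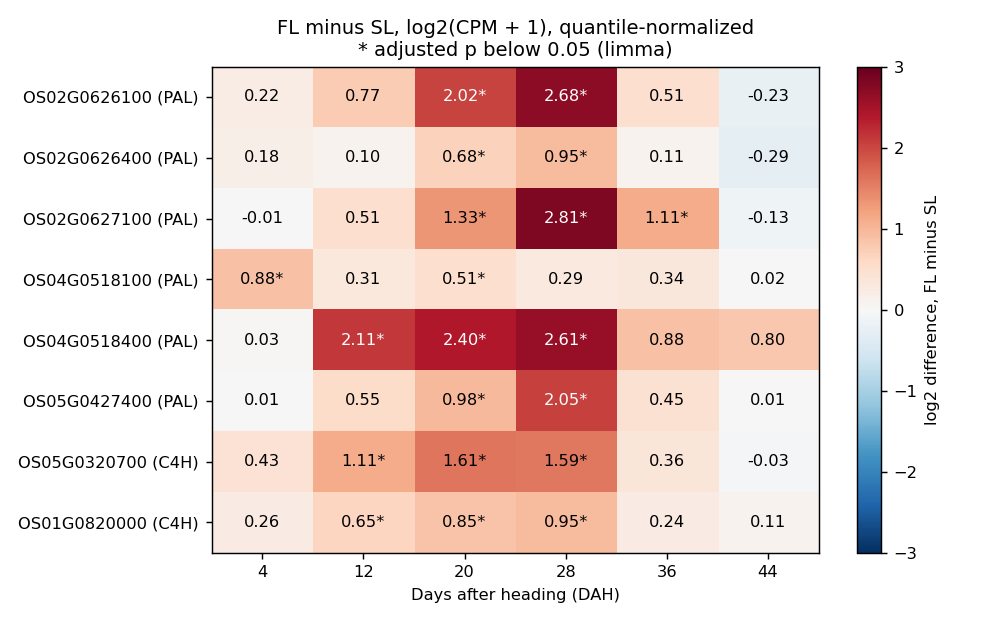
Log2 difference, FL minus SL, of quantile-normalized log2(CPM + 1) for the 8 copies (rows) at 6 time points (columns, days after heading), with red for higher in FL and blue for lower; asterisks mark an adjusted p below 0.05 in limma. The columns for 20 and 28 DAH hold 15 of the 20 asterisks, and the row of OS04G0518100 alone has one at 4 DAH.

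The plain separation of the libraries gave a similar order of time points. From the first time point to the last, all 3 FL libraries exceeded all 3 SL libraries for 3, 6, 7, 7, 4 and 0 copies. Over all genes tested, the share in the same order was 22.8%, 16.7%, 28.2%, 14.4%, 15.1% and 9.19%. A grain storage protein transcript, the glutelin GLUA1, stood at 13.9 CPM in FL replicate 2 and 22.3 CPM in SL replicate 2 of 20 DAH, whereas its median over the 18 libraries of a leaf was 0.0255 CPM in FL and 0.0204 CPM in SL. With replicate 2 left out of every group, 1776 of 21642 genes were called higher in FL at 20 DAH, against 3357 of 22057 with all libraries. The count also fell without replicate 1, to 1772 of 21687, and without replicate 3, to 2402 of 21656. Without replicate 2, 5 of the 8 copies were called at 20 DAH. The calls lost were those of OS02G0626400 (0.51 ± 0.21, adjusted p = 0.107), OS05G0427400 (0.86 ± 0.36, adjusted p = 0.107) and OS01G0820000 (0.94 ± 0.32, adjusted p = 0.0548). The part of the libraries with glutelin in the result was not tested on its own. The call of OS04G0518100 at 20 DAH was lost without replicate 1 (0.53 ± 0.19, adjusted p = 0.0648).

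Whether the course over time differed between the leaves was tested with the interaction of leaf and time point. It was called for 7 of the 8 copies, against 20.2% of all genes, with OS01G0820000 as the exception at an adjusted p of 0.118. The smallest adjusted p-values were 5.46e-05 for OS05G0320700 and 8.00e-05 for OS02G0626100, and these 2 calls were kept without each replicate number in turn. With 2 replicates a group, the count fell to 3 without replicate 1, 4 without replicate 2 and 3 without replicate 3. Over all genes the calls fell as well, from 4446 of 22057 to 493 of 21687, 328 of 21642 and 2593 of 21656. Relative to 4 DAH, the difference at 28 DAH had grown for 6 copies, against 5.99% of all genes, and had shrunk for 1, OS04G0518100 (-0.60 ± 0.20, adjusted p = 0.0455), against 7.75%. The growth was largest for OS02G0627100 (2.83 ± 0.45, adjusted p = 0.000164), OS04G0518400 (2.58 ± 0.58, adjusted p = 0.00357) and OS02G0626100 (2.46 ± 0.40, adjusted p = 0.000219).

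Each leaf by itself changed over time at all 8 copies, against 78.9% of all genes in FL and 77.8% in SL, shares so high that the count says little of these copies. In SL the count was 6 without replicate 1, 7 without replicate 2 and 5 without replicate 3, and OS04G0518400 was lost each time. The count over all genes went from 17166 of 22057 to 12875 of 21687, 14336 of 21642 and 16159 of 21656. At 28 DAH, all 8 copies were above 4 DAH in FL, against 27% of all genes, whereas in SL 3 were, against 27.9%, namely OS02G0626400, OS04G0518100 and OS01G0820000. At 36 DAH, 6 copies were above 4 DAH in SL, against 18.8%, and 1 was below it, OS04G0518400 (-1.07 ± 0.41, adjusted p = 0.0448), against 15.8%. OS02G0626100 was below its 4 DAH level in SL at 20 DAH (-0.81 ± 0.29, adjusted p = 0.0224) and above it at 36 DAH (1.54 ± 0.29, adjusted p = 0.000112).

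The 36 DAH libraries were set against the mean of 28 and 44 DAH. In FL, 1 copy was higher, OS04G0518100 (0.29 ± 0.12, adjusted p = 0.0485), and 3 were lower, OS04G0518400 (-2.01 ± 0.36, adjusted p = 2.54e-05), OS01G0820000 (-0.64 ± 0.19, adjusted p = 0.00470) and OS02G0626400 (-0.52 ± 0.13, adjusted p = 0.00190), against 27.2% of all genes higher and 26% lower. In SL, 3 were higher, OS02G0626100 (1.11 ± 0.25, adjusted p = 0.000434), OS05G0427400 (1.02 ± 0.29, adjusted p = 0.00408) and OS05G0320700 (0.55 ± 0.15, adjusted p = 0.00263), and 1 was lower, OS04G0518400 (-1.18 ± 0.36, adjusted p = 0.00676), against 26.4% higher and 24.8% lower. In either direction, 4 of the 8 copies were called in each leaf, against 11737 of 22057 genes in FL and 11295 in SL. These counts are near the share of all genes and say little of the copies. Without replicate 2, 9091 of 21642 genes were called in FL and 10327 in SL, and 4 of these 8 calls of the copies passed. Those lost were OS01G0820000 in FL (-0.67 ± 0.28, adjusted p = 0.0601), OS04G0518400 in SL (-0.83 ± 0.34, adjusted p = 0.0559), OS05G0427400 in SL (0.74 ± 0.31, adjusted p = 0.0566) and OS04G0518100 in FL (0.30 ± 0.14, adjusted p = 0.0916). The call of OS04G0518100 in FL was lost without each replicate number in turn. The SL libraries of 36 DAH were among the shallowest of the series, at 6113466 to 8435021 reads. So were SL replicates 1 and 3 of 44 DAH, at 5713546 and 6288741 reads, and FL replicates 2 and 3 of 44 DAH, at 6187371 and 5931903 reads. SL replicate 2 of 44 DAH held 12106425 reads.

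Summed over the 6 PAL copies, the signal at 28 DAH was 914 ± 84.6 CPM in FL and 348 ± 33.8 CPM in SL. At 44 DAH it was 517 ± 23.8 CPM in FL and 594 ± 117 CPM in SL. Summed over the 2 C4H copies it was 176 ± 31.1 CPM in FL and 67.6 ± 5.10 CPM in SL at 28 DAH, and 83.5 ± 7.21 CPM in FL and 80.6 ± 7.07 CPM in SL at 44 DAH. These sums are descriptions in reads, with no test. They cover only the copies followed, and other genes listed as PAL or C4H copies were not included. The same holds for the excess and for the shares of PAL reads and C4H reads below. The PAL sum of FL was largest at 28 DAH and that of SL at 44 DAH. The C4H sum of FL was nearly level from 12 DAH, 170.1 ± 17.3 CPM in FL and 82.3 ± 5.79 CPM in SL, to 28 DAH, whereas the PAL sum of FL was 316 ± 26.2 CPM at 12 DAH and 914 ± 84.6 CPM at 28 DAH.

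The flag-leaf excess of PAL reads at 28 DAH, 566 CPM between the summed means, was divided among the copies. OS02G0626100 held 39.03% of it, OS02G0626400 31.4% and OS02G0627100 19.4%, so that the chromosome 2 group made up most of it. OS04G0518400 held 5.47%, OS05G0427400 3.18% and OS04G0518100 1.57%. At 20 DAH the excess was 215 CPM, of which OS02G0626100 held 38.7% and OS02G0626400 32.5%. At 12 DAH it was 86.2 CPM, with OS02G0626100 at 33.6% and the otherwise low OS04G0518400 at 26.3%. At 4 DAH it was 36.4 CPM, with OS04G0518100 at 51.8%. At 44 DAH the sum was lower in FL by the mean, at -77.4 CPM, and OS02G0626400 made up 77.8% of that deficit, with no copy called.

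**Figure D3:**
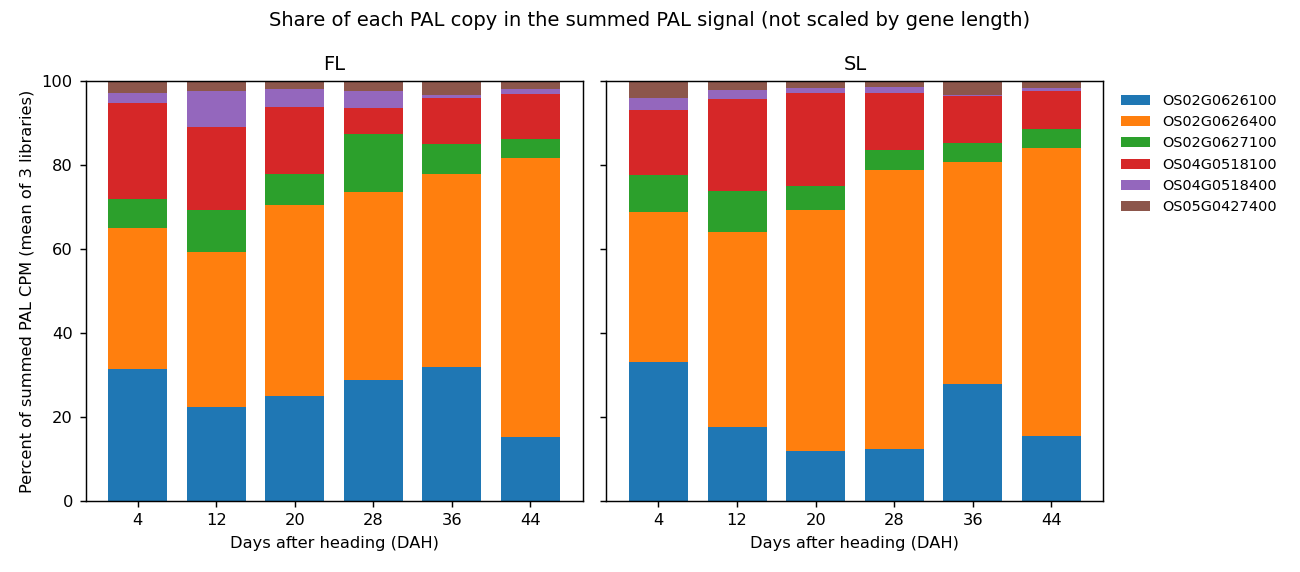
Percent of the summed PAL CPM given by each of the 6 PAL copies at 6 time points (days after heading), as the mean of 3 libraries, with FL on the left and SL on the right. OS02G0626400 (orange) made up 66.5% of the FL bar and 68.6% of the SL bar of 44 DAH, and at 28 DAH OS02G0626100 (blue) held 28.9% in FL and 12.4% in SL.

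The makeup of the PAL reads differed between the leaves in mid grain filling. At 28 DAH, OS02G0626400 held 44.8% ± 2.80 of the PAL reads in FL and 66.3% ± 6.17 in SL (SD, n = 3 each). OS02G0626100 held 28.9% ± 3.53 in FL and 12.4% ± 2.18 in SL, and OS02G0627100 held 13.8% ± 2.44 in FL and 4.90% ± 1.04 in SL. The largest share in both leaves at 4 DAH was that of OS02G0626400, but OS02G0626100 was within 3 percentage points of it, at 31.4% ± 1.88 in FL and 33.1% ± 3.24 in SL. At 44 DAH OS02G0626400 alone held 66.5% ± 0.334 in FL and 68.6% ± 4.51 in SL. Among the C4H reads of 28 DAH, OS05G0320700 held 73.04% ± 0.753 in FL, against 64.4% ± 1.06 in SL, and among those of 44 DAH 59.9% ± 1.86 in FL, against 62.02% ± 1.19 in SL.

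To ask which copy had the larger relative difference between the leaves, the log2 ratio of 2 copies within a library was compared for 6 pairs. Such a ratio does not weigh the copies by their reads, as the division of the excess above does. The leaf labels were permuted within time points in an exact two-sided permutation test, with p-values adjusted over the 6 pairs. Since 1 CPM was added to each value, a scaling of the library cancels nearly for copies with many reads and less so for low ones. OS02G0626100 over OS02G0626400 was higher in FL by 0.71 (exact permutation p = 6.52e-05, adjusted p = 0.000391), and on day 28 it was -0.64 ± 0.27 in FL, against -2.40 ± 0.40 in SL. OS02G0626400 over OS02G0627100 differed by -0.61 (exact permutation p = 0.00179, adjusted p = 0.00268). Relative to OS02G0626400, both other expressed copies of the chromosome 2 group were thus higher in FL. OS02G0626100 over OS02G0627100 differed by 0.10 (exact permutation p = 0.435, adjusted p = 0.435), which did not pass as an average over time points. By library, this ratio was higher in FL at 20 DAH, at 1.65 to 1.74 in FL and 0.838 to 1.17 in SL. At 36 DAH it was lower in FL, at 2.05 to 2.17, against 2.50 to 2.73 in SL. The leaves overlapped at the other time points, and single time points were not tested for this ratio.

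OS04G0518100 over OS04G0518400 differed by -1.06 (exact permutation p = 0.000630, adjusted p = 0.00126), the largest shift among the pairs and -1.31 with a pseudocount of 0.1, and at 28 DAH the ratio was 0.63 ± 0.22 in FL and 3.01 ± 0.28 in SL. At 4 DAH it was on the other side, 3.06 ± 0.15 in FL and 2.13 ± 0.30 in SL. For C4H, OS05G0320700 over OS01G0820000 differed by 0.37 (exact permutation p = 0.000270, adjusted p = 0.000810). OS05G0427400 over OS02G0627100 differed by -0.26 (exact permutation p = 0.0181, adjusted p = 0.0217), a call that was lost with a pseudocount of 0.1, without replicates 2 or 3, without 28 or 36 DAH and when labels were permuted within a replicate block (exact permutation p = 0.0515, adjusted p = 0.0618). Without 28 DAH, the ratio of OS02G0626400 over OS02G0627100 also missed the threshold, at -0.33 (exact permutation p = 0.0351, adjusted p = 0.0526), and the other 3 calls passed.

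**Figure D4:**
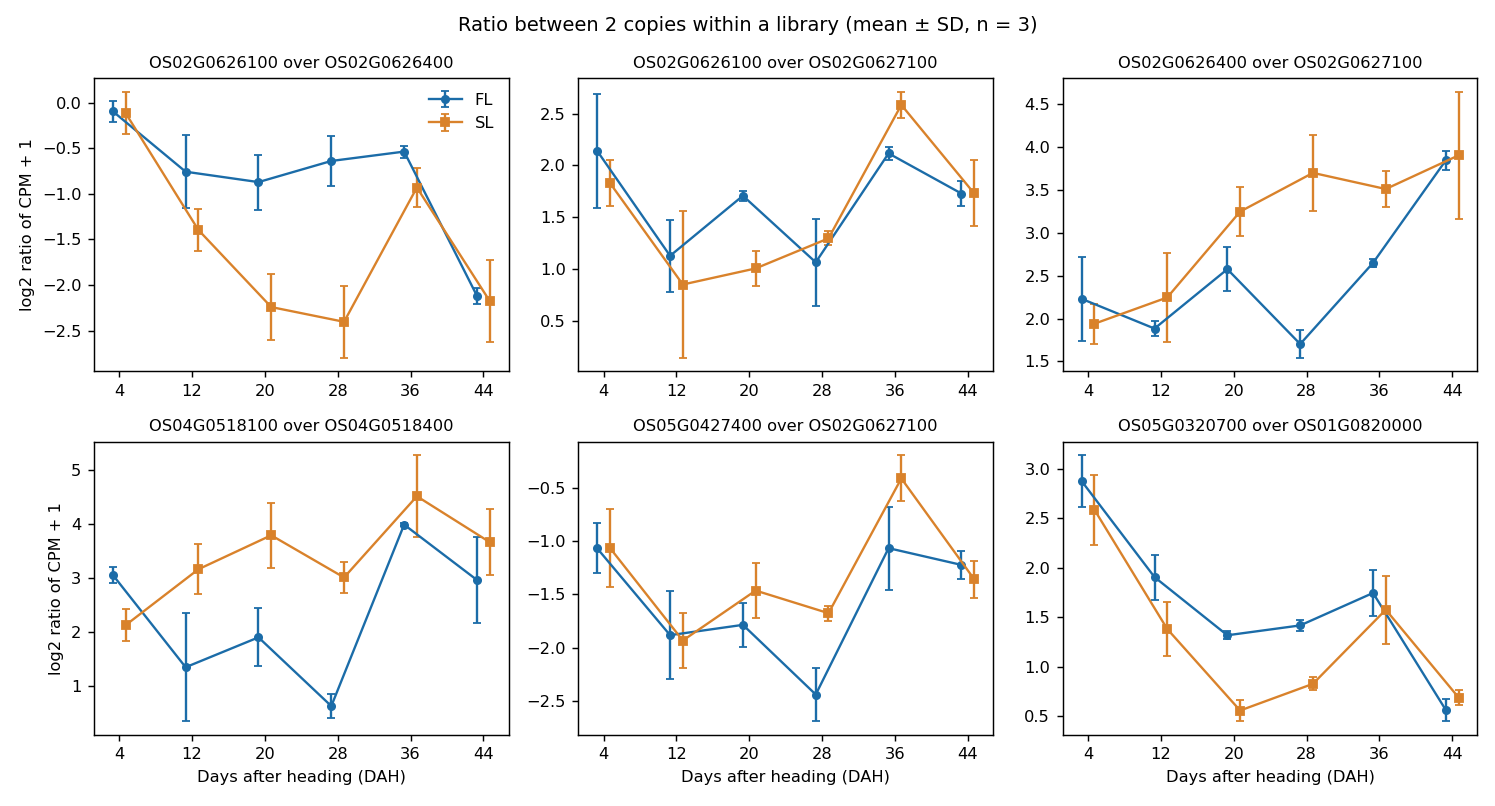
Log2 ratio of CPM + 1 between 2 copies within a library for 6 pairs against days after heading, with FL as blue circles and SL as orange squares; points are means and bars the SD of 3 libraries. In the first panel the leaves began close together at 4 DAH, were furthest apart at 28 DAH (-0.64 in FL, against -2.40 in SL) and met again at 44 DAH.

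Across the 36 libraries the copies did not move as 1 group. As a description with no test, on values that share libraries, depth and normalization, Pearson's r over the 28 pairs of copies was highest for OS02G0626100 with OS05G0427400, at 0.907, although they lie on different chromosomes. OS04G0518100 with OS01G0820000, a PAL and a C4H copy, had 0.826, and OS02G0627100 with OS05G0427400 had 0.822. The lowest was 0.156 for OS02G0626400 with OS05G0320700, the PAL and the C4H copy with the most reads. Within groups, as deviations from the group means, OS02G0627100 and OS05G0427400 had 0.809. In SL at 44 DAH, replicate 2 was the lowest library for OS02G0626100, OS02G0627100 and OS05G0427400 together, and it was also the deepest of its group.

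The genes whose profile over the 36 libraries was most like that of OS02G0626400 were OS02G0625500, a gene with a similar number on the same chromosome, at r = 0.968, OS03G0800400 at 0.939, OS04G0650000 at 0.932, OS05G0387200 at 0.931 and OS05G0363200 at 0.929. For OS05G0320700 they were OS03G0399800 at 0.935, OS06G0288300 at 0.921, 4CL2 (OS02G0697400) at 0.916, OS10G0320100 at 0.913 and OS05G0410200 at 0.912. None of the 10 was one of the 8 copies.

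The steps before and after PAL and C4H were read from a list of 13 annotated genes, of which 12 passed the filter and 4CL1 did not. On average over time, 9 were higher in FL, against 22.4% of all genes, and 1 was lower, against 26.4%. At 28 DAH 10 were higher, against 10.3%, and 0 lower, against 13.4%, with a median of 1.63 for the 12. At an unadjusted p under 0.05, 1 of the 12, 4CL4, was lower at 28 DAH. At 44 DAH limma called none in either direction, against 1.97% of all genes higher and 1.83% lower, and at an unadjusted p under 0.05 it had 4 of the 12 lower in FL. DAHPS2, an enzyme at the entry of the shikimate pathway that leads to phenylalanine, was at 53.7, 68.5 and 62.8 in FL, against 7.91, 12.1 and 8.20 in SL at 28 DAH (CPM). The leaves did not overlap, and the difference was 2.58 ± 0.18, adjusted p = 4.91e-10, whereas DAHPS1 had -0.23 ± 0.21, adjusted p = 0.456.

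At the 4CL step, 4CL2 stood at 10.2, 12.4 and 5.92 in FL, against 0.229, 0.599 and 0.0948 in SL at 28 DAH (CPM), and its log2 difference averaged 1.94 ± 0.13, adjusted p = 3.32e-12. The leaves did not overlap there, and at 12 DAH, where both leaves had their highest mean, it was 15.4 ± 7.25 CPM in FL and 1.14 ± 0.743 CPM in SL. 4CL3 (1.64 ± 0.21, adjusted p = 3.27e-06) and 4CL5 (1.77 ± 0.19, adjusted p = 3.46e-07) were higher in FL at 28 DAH, and 4CL4 was lower on average (-0.17 ± 0.04, adjusted p = 0.000251). At 4 DAH 4CL5 was lower in FL (-0.70 ± 0.19, adjusted p = 0.0145). Chalcone synthase CHS1, which opens the flavonoid branch, had 2.74 ± 0.26, adjusted p = 2.48e-09 on average. The transcript of PBZ1, a pathogen response protein, was lower in FL on average (-0.43 ± 0.10, adjusted p = 0.000473). By time point it was called lower only at 36 DAH (-1.16 ± 0.23, adjusted p = 0.00318) and 44 DAH (-0.97 ± 0.23, adjusted p = 0.0180). At 20 DAH it was -0.15 ± 0.23, adjusted p = 0.655, and at 28 DAH -0.41 ± 0.23, adjusted p = 0.212. The transcript of SGR, a chlorophyll breakdown protein, was also lower in FL on average (-0.46 ± 0.09, adjusted p = 7.34e-05). NYC1, another chlorophyll breakdown gene, was higher in FL on average (0.38 ± 0.03, adjusted p = 4.31e-10) and was called higher at all 6 time points. The part of pathogens or of leaf age in the differences of the 8 copies was not tested.

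**Figure D5:**
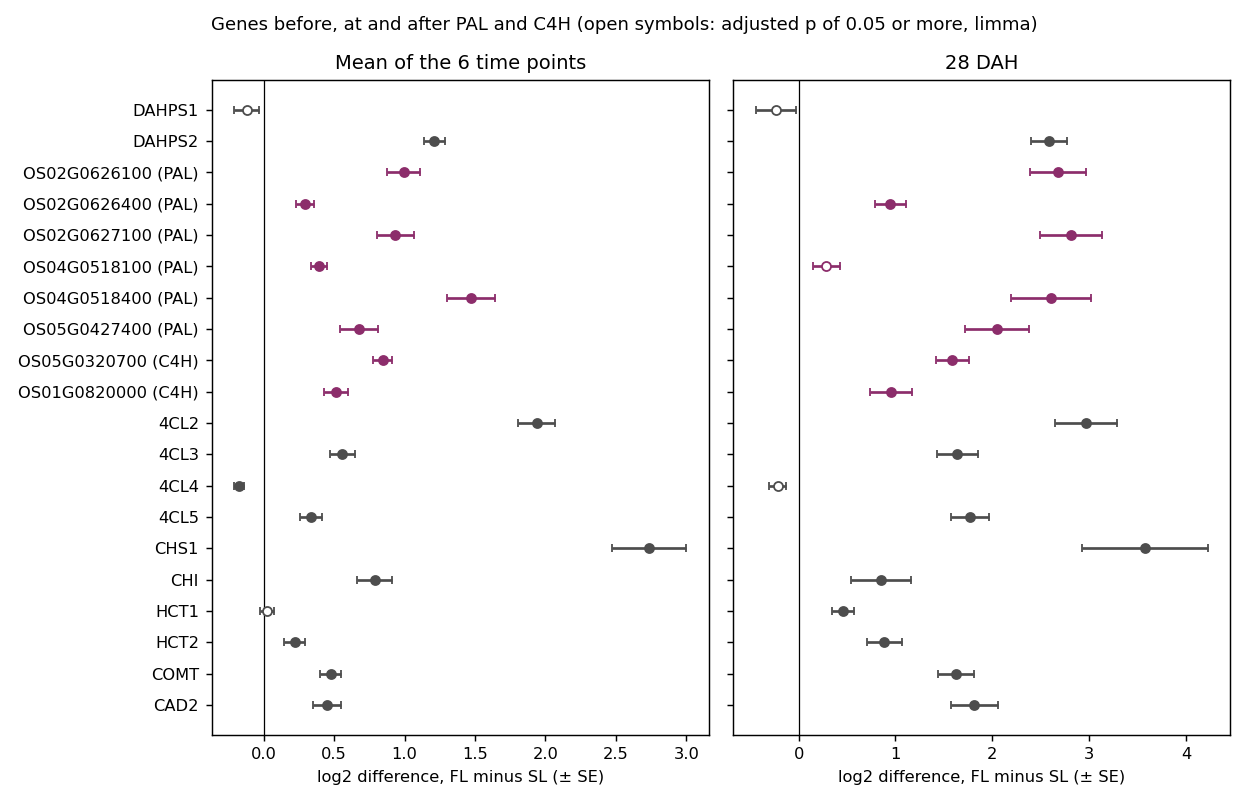
Log2 difference, FL minus SL, with the SE, for 12 genes before and after PAL and C4H (grey) and the 8 copies (purple), averaged over 6 time points (left) and at 28 DAH (right); open symbols mark an adjusted p of 0.05 or more in limma. At 28 DAH, 10 of the 12 grey genes and 7 of the 8 purple genes are filled and lie to the right of 0.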

How the data were processed

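The leaf, time point and replicate of each of the 36 libraries were taken from the labels and the column names. According to the authors, adapters were trimmed with cutadapt 1.2.1, stranded paired-end reads were aligned to IRGSP-1.0 with TopHat2 2.0.10 and Bowtie, allowing multiple alignments, and reads on genes were counted with HTSeq 0.6.1; CASAVA 1.8.2 is also named in the submitters' processing notes. The deposited values are a signal on the linear scale, CPM over library sizes that the authors scaled with the TMM method of edgeR, for 38026 genes. In the columns, 100% of the values were whole multiples of what 1 read is worth (tolerance 0.01 reads), from which the reads on genes were recovered. The log2(CPM + 1) transformation and the quantile normalization described by the authors were applied here. Depth was 5713546 to 29789199 reads per library.

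The 12 groups of leaf and time point were fitted with limma 3.58.1 (trend = TRUE) in R 4.3.3 for the 22057 genes that reached a log2 value of 1 in a minimum of 3 libraries, with Benjamini-Hochberg adjustment over these genes for each comparison. Ratios between copies were computed within libraries on CPM + 1 and compared by an exact two-sided permutation test over 64000000 arrangements. The steps were tested on simulated data. Alternatives were a pseudocount of 0.1, TMM scaling without quantile normalization, no filter, edgeR 4.0.16 and DESeq2 1.42.0 on the recovered reads, fits to the libraries of 1 time point, the replicate number as a block, leaving out each replicate and leaving out 36 DAH; leaving out 28 DAH was added after seeing the data. Named genes were the 8 members, the 4CL genes, list genes with an average log2 difference of at least 1 in size, the 5 genes most like the PAL and the C4H copy with the most reads, and DAHPS1, OS02G0626600, PBZ1, SGR, NYC1 and the markers. DAHPS1, PBZ1, SGR and NYC1 were named after their values were seen. The members and lists were chosen with earlier results of these data known. Pathway genes without an annotated name in the tables used here were left out. Gene names came from a reference table of another assembly, ASM3414082v1, in which 23729 of 27160 gene identifiers matched. The order of neighbouring genes was taken from its positions, and no coordinates are printed. Python 3.11.15 with numpy 2.4.6, pandas 2.3.3, SciPy 1.17.1 and matplotlib 3.10.9 was used.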

Additional observations from a re-analysis of the deposited data

Results flagged for a closer look

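For 7 of the 8 copies, the change over time in FL differed from that in SL by the test of the interaction of leaf and time point. The adjusted p-values of limma were 5.46e-05 for OS05G0320700, 8.00e-05 for OS02G0626100, 0.000354 for OS02G0627100, 0.00218 for OS02G0626400, 0.00678 for OS04G0518400, 0.0146 for OS05G0427400 and 0.0372 for OS04G0518100. In 6 of these the difference was larger at 28 DAH than at 4 DAH, and in OS04G0518100 it was smaller, with every FL library above every SL library at 4 DAH and overlap at 28 DAH. Without 1 replicate of each group, 3 or 4 of the 7 passed. The calls over all genes were 328 to 2593 in the same fits, against 4446 with all libraries.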

How the results depend on the processing

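No called result reversed under any alternative that was run. Of the results for single copies that were not called, 11 changed sign under 1 or more alternatives, none of them called there. Of the results for single copies under the alternatives, 869 stayed on the same side of the threshold, 46 lost their call and 13 gained one. The count of copies called for the interaction of leaf and time was 3 to 4 without 1 replicate number, against 7. For all genes it was 328 to 2593, against 4446. The count for change over time in SL was 5 to 7, against 8, and that for 36 DAH against its neighbours 4 to 7, against 8. The average difference between the leaves was called for 8 copies under every alternative but the one without 28 DAH, where it was 7, and the count over time points was 15 to 23, against 20. The ratio of OS05G0427400 over OS02G0627100, -0.26, lost its call with a pseudocount of 0.1 (-0.21, adjusted exact permutation p = 0.0751), without 36 DAH (-0.18, 0.129) and without 28 DAH (-0.16, 0.196). Its call was also lost without replicate 2 (-0.24, 0.161) and without replicate 3 (-0.26, 0.0822), and was kept without replicate 1 (-0.28, 0.0219). The ratio of OS02G0626400 over OS02G0627100 lost its call without 28 DAH (-0.33, 0.0526). The fits without a replicate number or a time point held fewer libraries, that with a pseudocount of 0.1 did not, and the causes of the lost calls were not tested.

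FL and SL replicates share numbers. What set the libraries apart from their group means was correlated between FL and SL. The mean was 0.173 where the number was the same and -0.0888 otherwise. Deviations within a group balance out, so these means are not independent. Of 18 pairs, 11 were over 0.1, and 10 of 18 FL libraries correlated best with the SL library of their own number. These values leaned towards the same number, but the labels name no pairs, and the main fit did not pair the samples. With the replicate number within a time point as a block, 23 comparisons at single time points were called, against 20, and 8 copies for the interaction, against 7. The count for the average was 8, and the ratio of OS05G0427400 over OS02G0627100 was -0.26 (adjusted exact permutation p = 0.0618). For changes between time points the block was instead the replicate number within a leaf, and the labels do not link libraries across time points either. With that block the counts for change over time in either leaf were 8 and that for 36 DAH against its neighbours 7. Depth limited mainly OS04G0518400, with as few as 3 reads in a library.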
